A study of Homo sapiens with 27 samples.

Results

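The cytosolic chaperonin TRiC, also called CCT, was followed through its 8 subunit genes TCP1, CCT2, CCT3, CCT4, CCT5, CCT6A, CCT7 and CCT8. They were taken by gene symbol, a rule that uses no measured value, with earlier results of these data known, and are 8 of the 67130 gene rows in each of the deposited count tables. All 8 passed the filter on low counts in every fit, with 11296 to 70211 reads per gene and library, and none is left out below. TRiC is a barrel of stacked rings, and each ring is built from all 8 subunits, so that TCP1, CCT4, CCT2, CCT5, CCT7, CCT8, CCT6A and CCT3 follow each other around it. It encloses newly made proteins, above all actins and tubulins, and folds them with the energy of ATP. Prefoldin hands unfolded actin and tubulin chains to the chaperonin, phosducin-like proteins regulate it, and its subunit genes are known targets of the heat shock factors.

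RNA was sequenced from 27 libraries in 9 groups of 3, and every group was labelled as ARID1A knockout. ARID1A is a large subunit of BAF complexes, which remodel chromatin. In 293T, a transformed human embryonic kidney line, the knockout cells stably carried lentiviral Flag-tagged ARID1A in the missense forms V2084D, G2087E, G2087R or K2025E or in the wild-type form (WT), or had no construct named in the labels (KO). In Huh7, a hepatocellular carcinoma line, the knockout cells carried V2084D with a knockdown of STUB1 by short hairpin RNA (V2084D shSTUB1), V2084D alone, or WT. STUB1, also known as CHIP, is a ligase that attaches ubiquitin to clients held by HSP70 and HSP90. The labels give neither the number of knockout clones nor whether replicates came from separate cultures, so p-values measure the spread between these libraries, which may be technical.

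Libraries held 59124374 to 79915177 counted reads under the Huh7 label and 33429483 to 55539529 under the 293T label. Levels are CPM, read counts scaled to a common library total with trimmed-mean (TMM) factors over all 27 libraries. Log2 differences come from edgeR's quasi-likelihood test, and "called" means that the p-value, adjusted by Benjamini-Hochberg across every gene in the fit, fell under 0.05. ARID1A stood at 13598 to 116307 CPM in the 293T libraries given an ARID1A form other than WT, except G2087R replicates 1 and 2, which had 294 and 326 CPM, against 5727 to 63182 CPM in WT and 119 to 194 CPM in KO libraries. G2087R replicates 1 and 2 thus went against their label, and results of that group are also given without them. In the libraries labelled Huh7, ARID1A lay between 188 and 390 CPM in all 3 groups, although each is labelled as overexpressing it, so V2084D and WT there name what the labels say and not a measured transgene level. STUB1 had 69.4, 83.3 and 65.9 CPM in V2084D shSTUB1 libraries, against 247, 247 and 290 CPM in V2084D libraries. None of 10 liver markers reached a median of 10 CPM in the libraries labelled Huh7, and all 10 had medians below 1 CPM, while 6 of 10 genes listed as 293T markers did reach it, so Huh7 is used below as a label only. The liver markers summed to 1.86 to 5.14 CPM there and to 2.88 to 10.5 CPM under the 293T label. Of the 10 genes listed as 293T markers, 5 reached a median of 10 CPM under the 293T label itself. Those 10 genes summed to 371 to 771 CPM in its libraries and to 354 to 800 CPM in those labelled Huh7. On principal components of log2 CPM, replicates 2 and 3 of K2025E lay away from all remaining 293T libraries, with first-component scores of -106 and -68.2 against -41.0 to 48.7, and V2084D shSTUB1 replicate 2 stood apart from the other Huh7 libraries on the second component, at 93.4 against -53.1 to 13.3.

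The promoters of 4 subunits are shown because their genes moved differently: CCT3 and CCT7 were called in comparisons of both line labels, whereas TCP1 and CCT4 passed the test in none. Each promoter shown is the RefSeq window on GRCh38.p14 from 250 bases before to 50 bases after an annotated start site. It is read 5′ to 3′ along the gene. CCT5 was also called under both labels. Its window, chr5:10250287-10250586, is not shown and held none of the 7 motifs searched. That window lies after the gene start at 10249921, and its part before the start site already holds the first coding bases. It therefore does not stand for the CCT5 promoter. The windows of CCT3 and CCT7 also lie inside the annotated gene spans. The windows are chr1:156338243-156338542 on the minus strand for CCT3, chr2:73234058-73234357 on the plus strand for CCT7, chr6:159789553-159789852 on the minus strand for TCP1 and chr2:61888607-61888906 on the minus strand for CCT4. Capitals mark matches to paired heat shock element units (GAANNTTC or TTCNNGAA) and to the CCAAT box on either strand (CCAAT or ATTGG).
CCT3 promoter: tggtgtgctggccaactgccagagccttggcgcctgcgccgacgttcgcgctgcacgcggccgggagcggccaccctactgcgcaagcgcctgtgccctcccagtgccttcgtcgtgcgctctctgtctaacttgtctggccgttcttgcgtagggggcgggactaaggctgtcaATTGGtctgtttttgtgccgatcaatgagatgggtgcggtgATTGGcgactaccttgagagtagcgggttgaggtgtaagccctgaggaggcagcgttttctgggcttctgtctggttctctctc
CCT7 promoter: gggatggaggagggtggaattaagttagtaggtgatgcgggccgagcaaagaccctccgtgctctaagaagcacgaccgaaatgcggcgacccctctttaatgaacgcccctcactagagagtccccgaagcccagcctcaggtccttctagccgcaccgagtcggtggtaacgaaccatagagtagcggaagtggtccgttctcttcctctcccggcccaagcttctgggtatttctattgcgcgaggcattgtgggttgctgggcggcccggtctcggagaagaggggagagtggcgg
TCP1 promoter: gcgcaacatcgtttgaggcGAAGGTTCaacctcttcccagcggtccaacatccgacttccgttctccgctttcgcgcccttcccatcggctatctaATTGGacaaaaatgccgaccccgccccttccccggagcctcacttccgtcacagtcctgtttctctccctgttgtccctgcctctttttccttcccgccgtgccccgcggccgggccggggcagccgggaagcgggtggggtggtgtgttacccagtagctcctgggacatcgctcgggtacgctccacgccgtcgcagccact
CCT4 promoter: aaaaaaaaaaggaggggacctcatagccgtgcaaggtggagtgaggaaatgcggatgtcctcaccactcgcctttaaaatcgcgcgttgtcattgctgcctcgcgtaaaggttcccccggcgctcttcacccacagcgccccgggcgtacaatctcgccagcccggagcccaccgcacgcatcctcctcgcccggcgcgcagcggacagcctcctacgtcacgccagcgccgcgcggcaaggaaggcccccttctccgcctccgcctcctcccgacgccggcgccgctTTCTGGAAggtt
The 7 motifs searched on both strands did not overlap within these matches, and a match is a description of the letters only. GAANNTTC was found in the TCP1 window, 231 bases before the start site, and in 1 of the windows of CCT2, and 6.77% of 35116 RefSeq promoter windows held it. TTCNNGAA was found in the CCT4 window shown, 38 bases after its start site, and in 7.74% of all windows. A second, overlapping CCT4 window did not hold it. CCAAT was found in the windows of TCP1, CCT2, CCT3 and CCT8, against 34.6% of all windows, and CCT3 held it at 75 and 34 bases before its start site. The GC box GGGCGG, left in lower case here, was in windows of 5 of the 7 subunits with a window (all but CCT6A), against 45% of all windows. The ETS motif CCGGAAGT was in a CCT2 window and in 4.14% of all, while the E-box CACGTG and the TATA box TATAAA, held by 7.26% and 11.5% of all windows, were in no subunit's window. Neither heat shock unit was present in the windows of CCT3, CCT7 and CCT8. The CCT5 window, counted among the 7 subunits with a window, held neither as well. Since it does not stand for the CCT5 promoter, nothing about that promoter follows from it.

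On GRCh38 the genes lie apart from each other. TCP1 is at chr6:159778498-159789749 (minus strand), CCT2 at chr12:69585334-69601570 (plus), CCT3 at chr1:156308968-156367873 (minus), CCT4 at chr2:61868089-61888804 (minus), CCT5 at chr5:10249921-10266412 (plus), CCT6A at chr7:56051630-56063989 (plus), CCT7 at chr2:73233420-73253021 (plus) and CCT8 at chr21:29055805-29073797 (minus). Per kilobase of principal transcript, mean levels over the 9 Huh7 libraries ran in the order CCT7 at 346, CCT3 at 343, CCT4 at 241, CCT8 at 200, CCT2 at 188, CCT6A at 177, TCP1 at 140 and CCT5 at 128 CPM per kb. Over the 18 libraries labelled 293T the order was CCT3 at 426, CCT7 at 316, CCT4 at 233, CCT8 at 175, CCT2 at 173, TCP1 at 169, CCT6A at 161 and CCT5 at 135 CPM per kb. The ranges of neighbours in both orders overlapped when pooled over libraries. Within single libraries, CCT3 lay above CCT7 in every library labelled 293T, and CCT7 above CCT4 in every library of both labels. Although the subunits are built into the ring in equal number, the highest and lowest of the 8 levels per kb differed by 2.30 to 3.53 times within a library. The smallest factors, 2.30 to 2.63, were those of the 3 Huh7 V2084D libraries. Levels per kb depend on the transcript length used, 3675 bases for CCT5 and 1916 to 2719 bases for the other subunits. The annotation behind the counts is not known, so part of these factors may come from the choice of transcript.

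**Figure D1:**
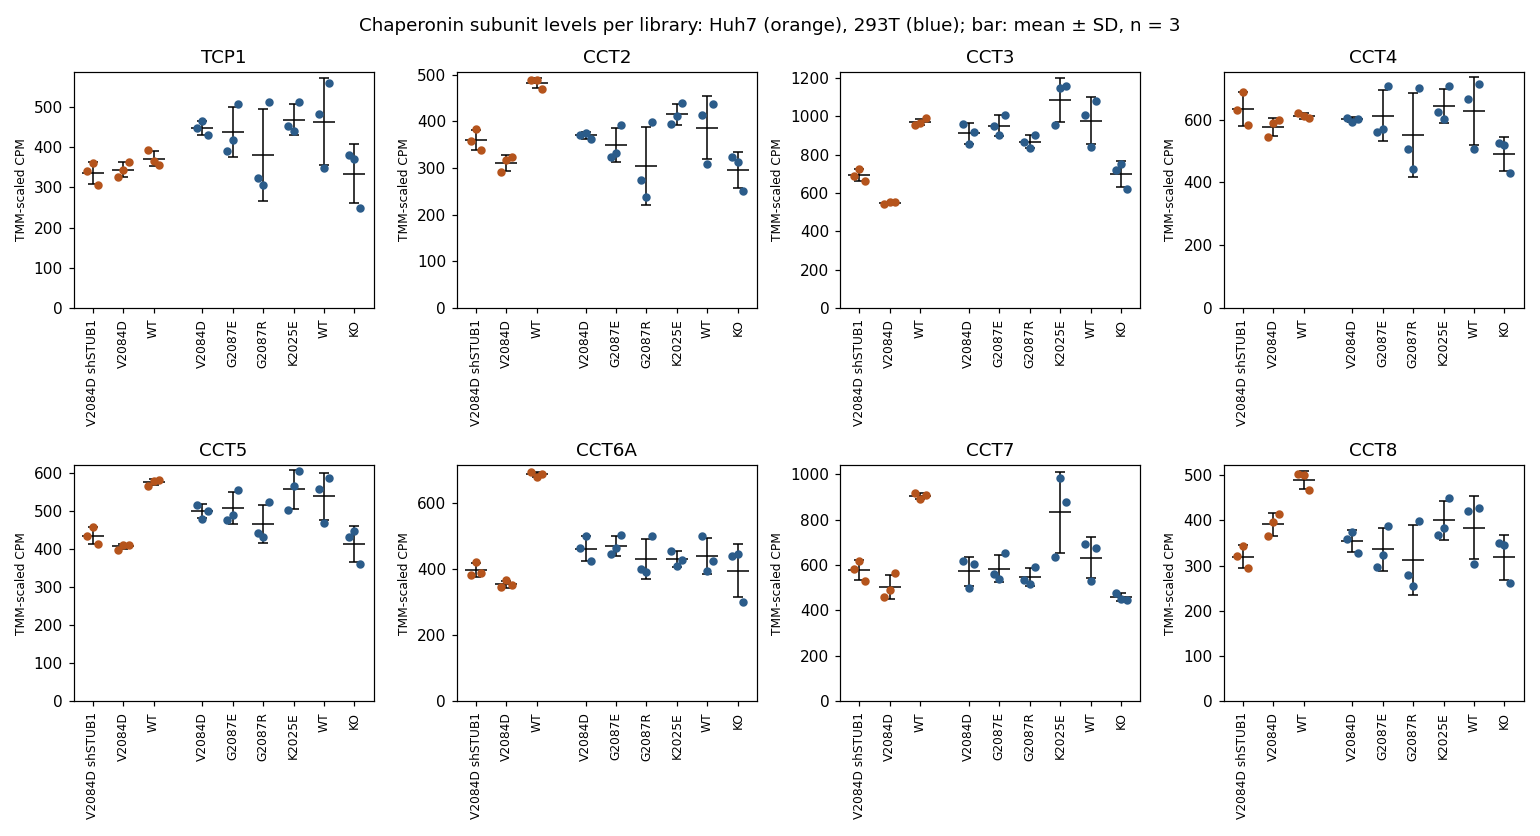
Level of each subunit in each of the 27 libraries, in TMM-scaled CPM (vertical axis, from 0), by group (horizontal axis); points are libraries, bars the mean ± SD of 3. In the libraries labelled Huh7 (orange), WT stands above V2084D for all subunits but TCP1 without overlap, and in those labelled 293T (blue) the KO libraries lie at or near the bottom with overlap between most neighbouring groups.

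The first comparison asked how the subunits differed between V2084D and WT ARID1A under the Huh7 label, where the ARID1A level did not show the constructs. The 8 together summed to 3279, 3464 and 3582 CPM in V2084D libraries, against 5139, 5080 and 5064 CPM in WT libraries, so the mean sum was 32.4% lower. In bulk RNA, fewer cells with a given RNA and less of it per cell cannot be told apart. Of the 8 subunits, 6 fell and none rose. This comparison called 42% of all 22510 genes tested, 20% as lower and 22% as higher, so calls were common among all genes. The median log2 difference of the 8 was -0.59, beside 0.03 for all genes. The libraries of both groups did not overlap for 7 of the 8, all lower in V2084D, as for 26.9% of all genes.

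Of the neighbours TCP1 and CCT4, neither passed the test. TCP1, the founding member first mapped in the mouse t-complex, had 327, 342 and 364 CPM in V2084D libraries and 341, 360 and 306 CPM in V2084D shSTUB1 libraries, against 392, 366 and 356 CPM in WT libraries. These groups overlapped, and the log2 difference of V2084D from WT was -0.13 (SE 0.0721, adjusted p = 0.164). CCT4, a subunit that binds actin, had 545, 589 and 599 CPM in V2084D libraries and 631, 688 and 581 CPM in V2084D shSTUB1 libraries, against 622, 611 and 604 CPM in WT libraries. All 3 V2084D values lay just under the WT values, and the log2 difference was -0.11 (SE 0.0628, adjusted p = 0.191). With offsets for GC content and transcript length both genes were also called lower, at -0.27 for TCP1 (adjusted p = 0.00139) and -0.23 for CCT4 (adjusted p = 0.00103).

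CCT2 and CCT5, next in the ring, fell by intermediate amounts. CCT2, mutated in a congenital blindness and known to act alone as a receptor that brings protein aggregates to autophagy, had 292, 318 and 324 CPM in V2084D libraries, against 487, 488 and 469 CPM in WT libraries. The log2 difference was -0.66 (SE 0.0612, adjusted p = 1.49e-05). CCT5, mutated in a hereditary sensory neuropathy and able to form rings by itself in bacteria, had 398, 410 and 411 CPM in V2084D libraries, against 566, 579 and 580 CPM in WT libraries. Its log2 difference was -0.53 (SE 0.0484, adjusted p = 1.34e-05). In both genes the highest V2084D library stayed well under the lowest WT library.

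On the other side of the ring, CCT7, CCT6A and CCT3 fell the most and CCT8 the least of those called. CCT7 had 461, 491 and 563 CPM in V2084D libraries, against 917, 890 and 909 CPM in WT libraries, a log2 difference of -0.87 (SE 0.0777, adjusted p = 1.15e-05). CCT6A, whose close relative CCT6B is made mainly in testis, had 347, 366 and 352 CPM in V2084D libraries, against 696, 680 and 689 CPM in WT libraries, a log2 difference of -0.98 (SE 0.0508, adjusted p = 4.27e-07). CCT3 had 545, 553 and 554 CPM in V2084D libraries, against 957, 966 and 989 CPM in WT libraries, a log2 difference of -0.84 (SE 0.0443, adjusted p = 4.64e-07). The V2084D means of these 3 genes were 44.2%, 48.4% and 43.3% below the WT means. CCT8, which promotes assembly of the ring in stem cells, had 364, 396 and 415 CPM in V2084D libraries, against 501, 499 and 467 CPM in WT libraries, a log2 difference of -0.35 (SE 0.0701, adjusted p = 0.00234). The 6 calls held in all 15 alternatives run, among them every fit with 1 library left out.

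Between V2084D shSTUB1 and V2084D libraries the subunits differed in opposite directions. The labels name no control hairpin, so loss of STUB1 and carrying a hairpin cannot be told apart. The sum was 3740, 3998 and 3516 CPM in V2084D shSTUB1 libraries, against 3279, 3464 and 3582 CPM in V2084D libraries, and these overlapped. CCT3, CCT2 and CCT6A rose and CCT8 fell, where 21.5% of all genes were called, 10.8% in each direction. The median log2 difference of the 8 was 0.15, beside -0.00349 for all genes.

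CCT3 had 688, 728 and 665 CPM in V2084D shSTUB1 libraries, against 545, 553 and 554 CPM in V2084D libraries, a log2 difference of 0.33 (SE 0.0440, adjusted p = 0.000714). It was the only subunit called in this contrast in all 15 alternatives. CCT8 had 322, 343 and 293 CPM in V2084D shSTUB1 libraries, against 364, 396 and 415 CPM in V2084D libraries, a log2 difference of -0.30 (SE 0.0701, adjusted p = 0.0134). Its call was lost at -0.30 and an adjusted p of 0.0504 without V2084D shSTUB1 replicate 1. CCT2 had 357, 384 and 339 CPM in V2084D shSTUB1 libraries, against 292, 318 and 324 CPM in V2084D libraries, a log2 difference of 0.21 (SE 0.0610, adjusted p = 0.0342). CCT6A had 383, 422 and 388 CPM in V2084D shSTUB1 libraries, against 347, 366 and 352 CPM in V2084D libraries, a log2 difference of 0.16 (SE 0.0503, adjusted p = 0.0427).

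The calls of CCT2 and CCT6A were fragile. The CCT2 call was lost without V2084D replicate 1 (0.16, adjusted p = 0.145) or 2 (0.22, 0.0815) and without V2084D shSTUB1 replicate 1 (0.22, 0.0945) or 2 (0.16, 0.100). The CCT6A call was lost whichever of the 6 compared libraries was left out, at log2 differences of 0.12 to 0.19 and adjusted p of 0.0626 to 0.151. With offsets for GC content and transcript length CCT6A was at 0.05 (adjusted p = 0.393) and CCT2 at 0.12 (adjusted p = 0.0629), neither called. Without V2084D shSTUB1 replicate 2, which stood apart, CCT3 was at 0.30 (adjusted p = 0.00229) and CCT8 at -0.35 (adjusted p = 0.00717). CCT7 had a log2 difference of 0.19 (adjusted p = 0.111), CCT4 of 0.13 (0.174), CCT5 of 0.09 (0.208) and TCP1 of -0.04 (0.781). The CCT7 call was reached at 0.28 (adjusted p = 0.0155) without V2084D replicate 3, and TCP1 was called lower at -0.16 (adjusted p = 0.0440) with those offsets.

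Set against WT, the V2084D shSTUB1 libraries had the same 6 subunits lower as the V2084D libraries did, and both comparisons share the WT libraries. CCT6A was at -0.82, CCT7 at -0.68, CCT8 at -0.64, CCT3 at -0.51, CCT2 at -0.45 and CCT5 at -0.43 on the log2 scale, with adjusted p of 1.03e-06 to 0.000162. Of all genes, 45.1% were called here and 21.7% were lower. TCP1 was at -0.17 (adjusted p = 0.0760) and CCT4 at 0.02 (adjusted p = 0.820). With GC and length offsets both were called lower, TCP1 at -0.43 (adjusted p = 5.97e-05) and CCT4 at -0.21 (adjusted p = 0.00196), and TCP1 was also called by DESeq2 (-0.18, adjusted p = 0.0410) and without V2084D shSTUB1 replicate 2 (-0.22, adjusted p = 0.0339). CCT8 had its lowest level of the 3 groups in V2084D shSTUB1, whereas CCT2, CCT3, CCT5, CCT6A and CCT7 had theirs in V2084D.

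**Figure D2:**
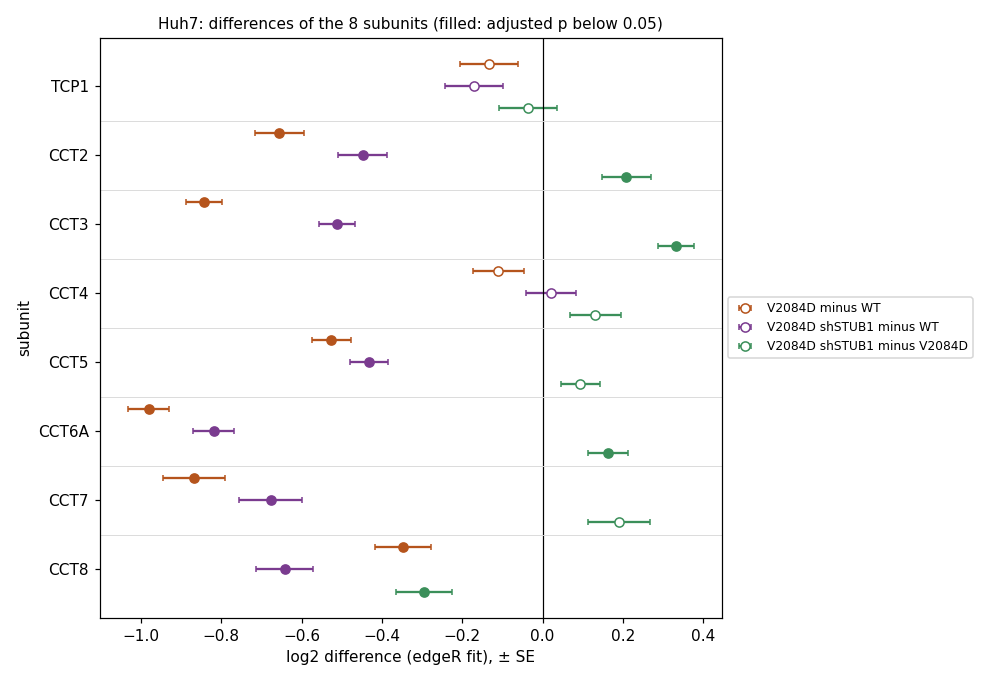
Log2 differences (horizontal axis, ± SE of the edgeR fit) of the 8 subunits (vertical axis) for V2084D minus WT, V2084D shSTUB1 minus WT and V2084D shSTUB1 minus V2084D in the libraries labelled Huh7; filled points passed an adjusted p of 0.05. CCT6A, CCT7 and CCT3 lie farthest below 0 for V2084D minus WT, TCP1 and CCT4 are open throughout, and CCT8 is the only filled point below 0 for V2084D shSTUB1 minus V2084D.

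The unequal differences of the subunits can also be read as ratios, shown for pairs picked because their members had moved unequally in these libraries, so that they restate the differences above. The ratio of CCT6A to CCT4 levels was 0.636, 0.622 and 0.588 in V2084D libraries and 0.606, 0.614 and 0.667 in V2084D shSTUB1 libraries, against 1.12, 1.11 and 1.14 in WT libraries. Every WT ratio lay above every other, and the 18 libraries labelled 293T lay between 0.596 and 0.880. The ratio of CCT8 to CCT3 levels was 0.669, 0.716 and 0.748 in V2084D libraries and 0.468, 0.471 and 0.441 in V2084D shSTUB1 libraries, against 0.524, 0.517 and 0.473 in WT libraries. Here V2084D alone stood above both other groups. With 3 against 3 libraries an exact two-sided permutation test cannot go below 0.1, and the ratios are given as a description with no test. As a share of the summed level per kb, CCT4 made up 15.5% ± 0.20 in V2084D and 15.6% ± 0.30 in V2084D shSTUB1, against 11.0% ± 0.07 in WT libraries (SD, n = 3 each).

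**Figure D3:**
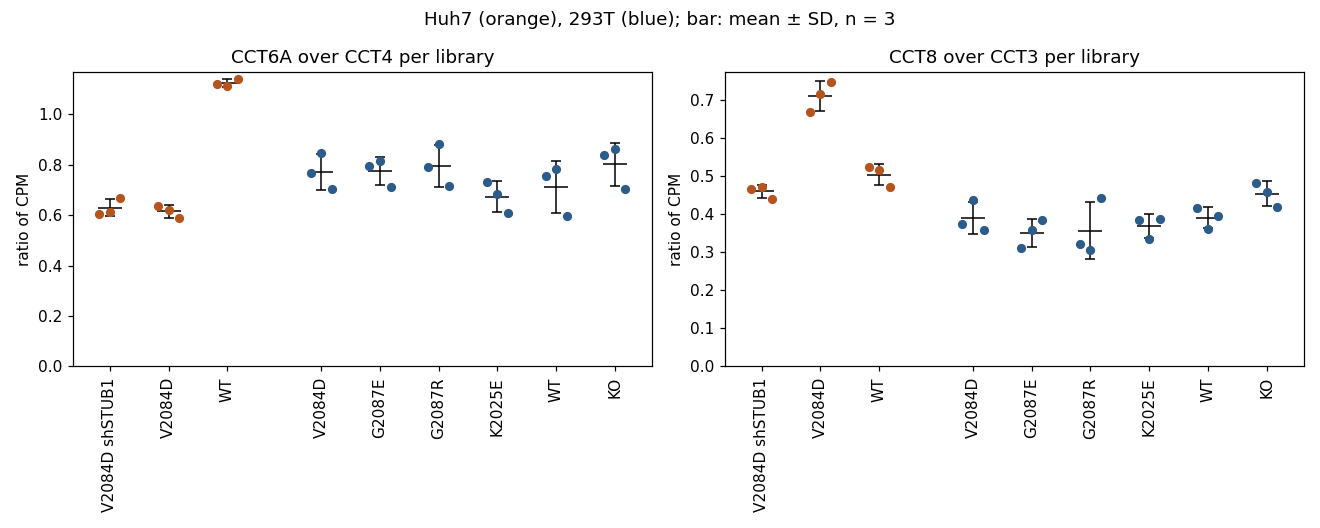
Ratio of CCT6A to CCT4 levels (left) and of CCT8 to CCT3 levels (right) in each library, as a ratio of CPM from 0 (vertical axis) by group (horizontal axis); points are libraries, bars the mean ± SD of 3. Huh7 WT reaches 1.11 to 1.14 in the left panel and Huh7 V2084D 0.669 to 0.748 in the right panel, each above all other groups.

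Genes that feed, regulate or use the chaperonin did not all move with it, and their counts in V2084D minus WT stand beside 20% of all genes lower and 22% higher. Among the 17 actins and tubulins, its main clients, 14 fell in Huh7 V2084D relative to WT and none rose, with a median log2 difference of -0.79. The beta-actin gene ACTB was at -1.72, the gamma-actin gene ACTG1 at -1.59 and the tubulin genes TUBB4B and TUBA1C at -1.41 and -1.24, and reads of such near-identical genes may have been divided between them. Of the 6 prefoldin subunits only PFDN1 fell, at -0.32. Among the 4 regulators tested, the phosducin-like PDCL3 was at -1.12 and TXNDC9 at -0.25, and both fell. The TXNDC9 call was lost in several fits with 1 library left out. Of the 7 tubulin cofactors, which pair tubulins after folding, TBCD at -1.32 and TBCB at -0.50 fell, so that prefoldin and the cofactors were near the share of all genes.

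Of the other 15 clients, 6 fell and 4 rose, among them the mitotic kinase gene PLK1 at -0.70, the cyclin gene CCNE1 at -0.51 and the phosphatase regulator PPP2R2A at 0.55. Among 7 related genes tested, the mitochondrial chaperonin genes HSPD1 at -1.09 and HSPE1 at -1.41 and the disaggregase gene CLPB at -1.42 fell, and 3 rose, CCT6B among them at 1.89. Of the 13 heat shock factors and inducible heat shock genes 10 fell and 1 rose, with a median log2 difference of -0.77. HSPA1A and HSPA1B, near-identical genes of inducible HSP70, were at -3.42 and -3.33, HSPA8 was at -2.88, HSP90AA1 at -1.80 and DNAJB1, an HSP70 partner, at -1.65. HSPA1A had 57.1, 47.8 and 54.3 CPM in V2084D libraries, against 552, 524 and 595 CPM in WT libraries. Under the 293T label it went the other way, with 1746, 1027 and 2827 CPM in V2084D against 351, 298 and 418 CPM in WT libraries. There 10 of the 13 had positive V2084D minus WT differences and 3 negative, with a median of 0.53 and 0 called. The test between line labels given below called 9 of the 13, all more negative in Huh7, beside 4.21% of all genes called as lower.

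In V2084D shSTUB1 minus V2084D, 5 of those 13 heat shock genes fell and none rose, beside 10.8% of all genes in each direction. HSPA1A was at -1.45 and HSPA8 at -0.99. HSPA1A had 18.6, 19.8 and 19.8 CPM in V2084D shSTUB1 libraries, against 57.1, 47.8 and 54.3 CPM in V2084D libraries. Of the actins and tubulins 6 fell and none rose, including ACTG1 at -0.50 and TUBB4B at -0.41. No prefoldin subunit passed the test, with the smallest adjusted p at 0.257 for PFDN1. TXNDC9 rose, at 0.63, as did CLPB at 0.39 and CCT6B at 0.71 on the log2 scale.

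In the libraries labelled 293T the question was how each ARID1A form differed from KO and from WT. The summed level averaged 4217 ± 109 CPM in V2084D, 4250 ± 400 in G2087E, 3857 ± 590 in G2087R, 4833 ± 404 in K2025E and 4449 ± 654 in WT, against 3405 ± 422 CPM in KO (SD, n = 3 each). With the groups put in order of these means, the range of each overlapped that of the next. Set against KO alone, the sums of V2084D, G2087E, K2025E and WT were higher without overlap, while those of G2087R overlapped KO. The lowest WT sum was 3699 CPM and the highest KO sum 3650 CPM. These comparisons share the KO libraries, and the sums were not tested. Only K2025E minus KO called any subunit.

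K2025E libraries had 3 of the 8 subunits higher than KO, where 12.9% of all 23201 genes tested were called, 7.17% as higher and 5.72% as lower. CCT7 had 634, 985 and 876 CPM in K2025E libraries, against 479, 453 and 444 CPM in KO libraries, a log2 difference of 0.86 (SE 0.162, adjusted p = 0.00674). CCT3 had 954, 1146 and 1157 CPM in K2025E libraries, against 722, 751 and 622 CPM in KO libraries, a log2 difference of 0.64 (SE 0.131, adjusted p = 0.00765). CCT5 had 502, 564 and 603 CPM in K2025E libraries, against 431, 447 and 359 CPM in KO libraries, a log2 difference of 0.43 (SE 0.139, adjusted p = 0.0475). The groups did not overlap for these 3 genes, nor for 7 of the 8 subunits in all, beside 16% of all genes higher without overlap. K2025E replicates 2 and 3, which stood apart from all other 293T libraries, held the highest K2025E values of CCT7, CCT3 and CCT5. For TCP1, CCT4 and CCT6A, K2025E replicate 1 lay above replicate 2.

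CCT6A was the flattest subunit in this contrast, with 456, 410 and 429 CPM in K2025E libraries, against 440, 448 and 302 CPM in KO libraries, at 0.12 on the log2 scale (adjusted p = 0.676). TCP1 and CCT2 were each at 0.49 (adjusted p = 0.137 and 0.0818), CCT4 at 0.39 (0.143) and CCT8 at 0.33 (0.266). The median log2 difference of the 8 was 0.46, beside -0.02 for all genes. No subunit was called without K2025E replicate 2, with CCT7 at 0.70 (adjusted p = 0.0617) and CCT3 at 0.57 (adjusted p = 0.0628), and that fit called 1 gene of all. The CCT5 call was lost without K2025E replicate 3 (0.35, adjusted p = 0.203), without KO replicate 1 (0.46, 0.103), 2 (0.49, 0.0822) or 3 (0.32, 0.159) and without G2087R replicates 1 and 2 (0.42, 0.0686) as well. Without K2025E replicates 2 and 3 together, CCT7 was at 0.46 and CCT3 at 0.44 (adjusted p = 0.944 each), with the lone K2025E library taken to vary like the other groups. In the same contrast 4 of 6 prefoldin subunits rose, led by PFDN2 at 1.12 and PFDN5 at 0.96, of 17 actins and tubulins TUBA1B alone rose, at 0.57, and 1 of the 13 heat shock genes, HSP90AB1, rose at 0.52. PFDN2, PFDN5, TUBA1B and HSP90AB1 were not called without K2025E replicate 2. Their part in the subunits' values was not tested.

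The other forms and KO were not told apart at the level of single subunits. For V2084D, G2087E and WT against KO, 0% of all genes were called, as for G2087R against KO, and 0 of 8 subunits passed. ARID1A was not called in these comparisons either, at log2 differences of 7.28 to 8.89 and adjusted p of 0.343 to 0.973. The lack of calls therefore does not show that the subunits were at equal levels. At an unadjusted p below 0.05, 5 subunits differed in WT minus KO, 1 in V2084D minus KO, 3 in G2087E minus KO and 1 in G2087R minus KO. In the same order, 2544, 1120, 1314 and 1001 of all 23201 genes did so. DESeq2 called 0 of 8 subunits in each. All log2 differences of the subunits from KO were positive in V2084D (0.16 to 0.43), G2087E (0.08 to 0.45) and WT (0.16 to 0.49), and these comparisons share the KO libraries. The libraries did not overlap for 6 subunits in V2084D minus KO, 6 in G2087E minus KO and 3 in WT minus KO, all higher, beside 7.44%, 8.93% and 8.93% of all genes that were higher and 6.37%, 7.53% and 8.59% that were lower without overlap. In G2087R minus KO they did not overlap for 2 subunits, both higher, beside 5.41% of genes higher and 5.23% lower. KO replicate 3 was the lowest KO library for all 8 subunits, for example TCP1 with 249 CPM against 381 and 371 CPM in KO replicates 1 and 2.

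Within G2087R the library with high ARID1A also had the higher subunits. TCP1 had 512 CPM in replicate 3, against 324 and 305 CPM in replicates 1 and 2, and CCT2 had 399 CPM against 275 and 238 CPM. Over the group the subunits were at -0.03 to 0.32 relative to KO, with a median log2 difference of 0.18. Without replicates 1 and 2 they were at 0.33 to 0.62, with a median of 0.37, and 0 of 8 were called (smallest adjusted p = 0.970). Replicate 3 is then a single library and is taken to vary like the other groups.

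Against WT, the subunits of the mutant forms did not separate in the libraries labelled 293T. Called genes made up 0% in V2084D minus WT and in G2087E minus WT and 0.00431% in G2087R minus WT and in K2025E minus WT, and 0 of 8 subunits passed in each. The V2084D minus WT differences ran from -0.15 for CCT7 to 0.07 for CCT6A, those of G2087E from -0.20 to 0.09, those of G2087R from -0.35 for CCT2 to -0.03 for CCT6A and those of K2025E from -0.04 for CCT6A to 0.39 for CCT7. At an unadjusted p below 0.05 the counts were 0, 0, 0 and 1 of 8, beside 467, 475, 1032 and 1919 of all 23201 genes. DESeq2 called 0 of 8 subunits in each. Without K2025E replicate 1, CCT7 was called higher in K2025E than in WT, at 0.55 (adjusted p = 0.0466). Without G2087R replicates 1 and 2, the G2087R minus WT differences turned positive for TCP1 (0.16), CCT2 (0.06), CCT4 (0.17), CCT6A (0.19) and CCT8 (0.07) and were -0.10 to -0.03 for CCT3, CCT5 and CCT7, with a median of 0.07 against -0.21 for the whole group, and 0 of 8 were called. The libraries of the forms and WT overlapped for all 8 subunits in all 4 comparisons.

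**Figure D4:**
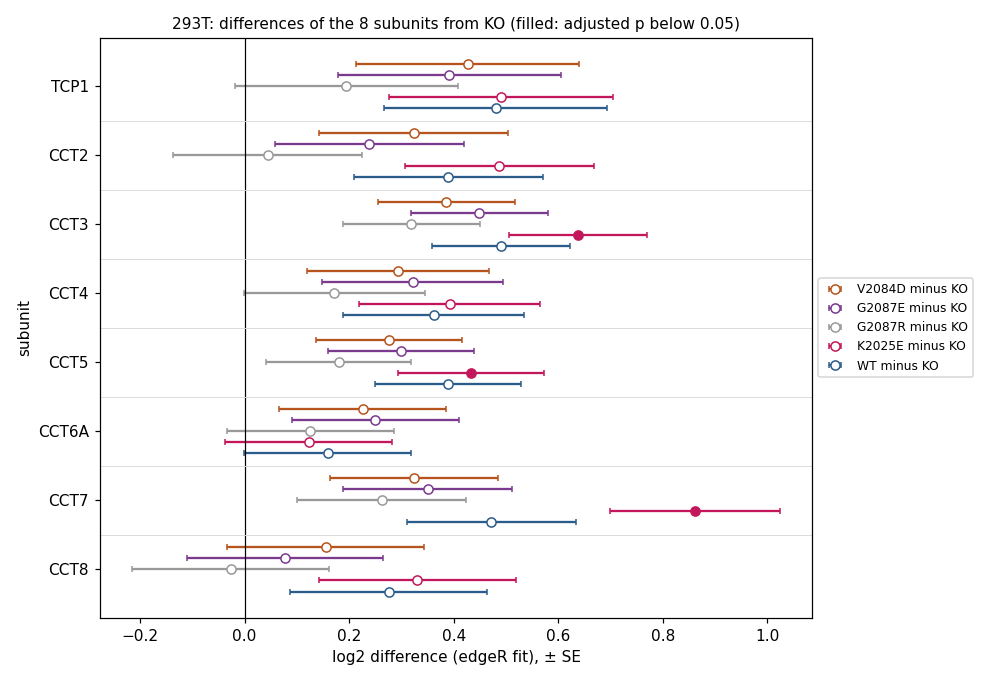
Log2 differences from KO (horizontal axis, ± SE of the edgeR fit) of the 8 subunits (vertical axis) in the libraries labelled 293T, for V2084D, G2087E, G2087R, K2025E and WT; filled points passed an adjusted p of 0.05. CCT7, CCT3 and CCT5 in K2025E are the only filled points, and all points but CCT8 in G2087R lie above 0.

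Whether the V2084D difference from WT was itself different between the line labels was tested as an interaction over all 27 libraries. It was called for 3 of 8 subunits, all more negative in Huh7 than in 293T, where 9.72% of 24546 genes were called, 4.21% as lower and 5.5% as higher. CCT6A had a difference of -1.03 (SE 0.186, adjusted p = 0.000898), CCT3 of -0.72 (SE 0.152, adjusted p = 0.00345) and CCT7 of -0.70 (SE 0.199, adjusted p = 0.0257). In 293T, CCT6A had 464, 500 and 424 CPM in V2084D libraries, against 502, 396 and 425 CPM in WT libraries, and these overlapped. The differences of the 5 other subunits ran from -0.57 for CCT2 (adjusted p = 0.0969) to -0.02 for CCT4 (adjusted p = 0.983). The calls of CCT6A and CCT3 held in all 20 alternatives, and that of CCT7 in 11. CCT7 was not called without 293T V2084D replicate 1 or 3, 293T WT replicate 2, Huh7 WT replicate 1 or 3 or Huh7 V2084D replicate 1 or 2, at -0.69 to -0.58 and adjusted p of 0.0550 to 0.0775. The line label, the count table and the ARID1A level differed together and cannot be told apart.

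WT libraries of both labels were also set side by side. CCT6A was higher in Huh7, with 696, 680 and 689 CPM in Huh7 libraries, against 502, 396 and 425 CPM in 293T libraries, a log2 difference of 0.64 (SE 0.131, adjusted p = 0.000999). CCT7 was higher as well, with 917, 890 and 909 CPM in Huh7 libraries, against 694, 528 and 676 CPM in 293T libraries, a log2 difference of 0.52 (SE 0.141, adjusted p = 0.00975). Of all genes, 23% were called and 10.5% were higher. The CCT7 call was lost without 293T WT replicate 2 (0.40, adjusted p = 0.0667). The other 6 subunits were not called, from -0.32 for TCP1 to 0.35 for CCT8.

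How closely the subunits varied together from library to library differed between them and between the line labels. Over the 18 libraries labelled 293T, Pearson's r between the log2 CPM of a subunit and the mean of the 7 others was highest for CCT5 at 0.971, which ranked first of 8966 genes of that level, followed by CCT2 at 0.952 and CCT4 at 0.950. It was lowest for CCT6A at 0.621, at rank 1295, and CCT7 at 0.730, at rank 668. Over the 9 libraries labelled Huh7 it was highest for CCT5 at 0.992 and CCT7 at 0.990 and lowest for CCT4 at 0.346, with TCP1 at 0.702 and CCT8 at 0.731, which put these 3 at ranks 3964, 2520 and 2264 of 9262 genes. These libraries fall into groups, so the Huh7 values largely follow the V2084D, V2084D shSTUB1 and WT means. With group means removed, CCT4 was at 0.990 and TCP1 at 0.894 in Huh7, and CCT6A at 0.632 was the lowest there, while in 293T CCT7 at 0.553 was the lowest, with CCT6A at 0.698. All points share their library's scaling, and no p is attached.

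The genes whose log2 CPM followed the mean of the 8 subunits most closely in the libraries labelled 293T were TIMM9, a mitochondrial import chaperone, TMEM183A, IFT46 of intraflagellar transport, the mitochondrial ribosomal protein genes MRPL45 and MRPS22 and the proteasome ATPase gene PSMC1, with r of 0.963 to 0.954 over 18 libraries. In those labelled Huh7 they were the mitochondrial RNA helicase gene SUPV3L1, the cyclophilin gene PPIA, the methionine sulfoxide reductase gene MSRB1, the nucleolar genes LYAR and NHP2 and the homeobox gene HOXA11, with r of 0.997 to 0.993 over 9 libraries among 9262 genes.

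Rows of pseudogenes and neighbours bear on what the counts hold; those named here were chosen after their values were seen. Pseudogenes of CCT6A, mainly CCT6P1 and CCT6P3, held reads equal to 2.13% to 7.04% of the CCT6A count per library, and CCT8P1 held 0.782% to 1.94% of the CCT8 count. For each other subunit the share was at most 0.138%, and no pseudogene row was found for CCT2. In Huh7 V2084D minus WT, CCT8P1 was at -0.47 (adjusted p = 0.0273), CCT6P3 at -0.21 (0.284) and CCT6P1 at 0.26 (0.146), where CCT6A was at -0.98. In GENCODE 29, exons of antisense genes covered 30.1% of the CCT5 exon length and 9.72% of that of CCT4, and the 3′ end of ACAT2 on the other strand covered 8.05% of that of TCP1. Whether the counting used strand is not given in the sources used here.

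Of the 8 subunits, 5 start close to a gene read in the opposite direction. PSPH, which encodes the last enzyme of serine synthesis, starts 26 bases from CCT6A and was higher in V2084D than in WT, where CCT6A was lower, with 47.7 ± 4.0 CPM in Huh7 V2084D and 68.5 ± 6.5 CPM in V2084D shSTUB1, against 28.2 ± 2.0 CPM in WT libraries (SD, n = 3 each). Its log2 difference was 0.73 for V2084D minus WT (adjusted p = 0.000106) and 0.52 for V2084D shSTUB1 minus V2084D (adjusted p = 0.00305), where CCT6A was higher as well. ATPSCKMT starts 24 bases from CCT5 and fell with it, at -0.76 for V2084D minus WT (adjusted p = 0.000894). It was higher in V2084D shSTUB1 than in V2084D, at 0.60 (adjusted p = 0.00874). COMMD1, 80 bases from CCT4, was at -0.06 for V2084D minus WT (adjusted p = 0.690), near the -0.11 of CCT4. MRPL18, 63 bases from TCP1, was at -0.32 and PRADC1, 182 bases from CCT7, at 0.44 in the same comparison, and both calls were lost in several fits with 1 library left out. In 293T K2025E minus KO, PRADC1 was at 1.14 (adjusted p = 0.00752) beside CCT7 at 0.86, COMMD1 at 0.97 (adjusted p = 0.0213) beside CCT4 at 0.39 and MRPL18 at 0.91 (adjusted p = 0.0354) beside TCP1 at 0.49. These 3 neighbours were not called without K2025E replicate 2, at adjusted p of 0.0670, 0.0967 and 0.117, and COMMD1 and MRPL18 were not called without replicate 3 either (0.140 and 0.183).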

How the data were processed

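RNA-seq libraries of 2 line labels, made from total RNA per the labels, were analysed from 2 tables of raw read counts per gene, deposited by the authors without normalization. The submitters' processing notes name GRCh38 and edgeR. The aligner, the read counter, the gene annotation and the strand setting are not given in the sources used here. Gene IDs were matched to GENCODE 29 for symbols, positions, GC content and length.

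Counts of all groups of a line were fitted together in edgeR 4.0.16 (R 4.3.3) with trimmed-mean (TMM) scaling and the default expression filter (minimum count 10), which left 23201 genes in 293T and 22510 in Huh7. Comparisons between lines used 1 fit of 27 libraries over 24546 genes. The quasi-likelihood F-test was adjusted by Benjamini-Hochberg over all genes tested. Depth limits no subunit, since each had at least 11296 reads per library. The steps were tested on simulated counts. The subunits are all named, and other genes were named by list (up to 4 called members of a list with the smallest p) or, where stated, after their values were seen. The members and lists were chosen with earlier results of these data known.

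Replicates within groups differed by more than counting noise, with a chi-square of 11.7 to 345 per degree of freedom over 27 pairs. Same-numbered replicates deviated together in all pairs, at correlations of 0.129 to 0.306, only for G2087R and WT in 293T, and the fit with a replicate block changed no subunit's call there. DESeq2 1.42.0, other scalings and filters, GC and length offsets, fits of only the groups compared and fits with libraries left out were the alternatives.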

Additional observations from a re-analysis of the deposited data

Results flagged for a closer look

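The difference between V2084D and WT was itself different between the line labels for 3 subunits, tested as an interaction in edgeR over all 27 libraries. The interaction was -1.03 for CCT6A, -0.72 for CCT3 and -0.70 for CCT7 on the log2 scale (Huh7 minus 293T). In Huh7, V2084D was below WT in 3 of 3 libraries for each of these genes, whereas in 293T the libraries of both groups overlapped. ARID1A in these groups lay at 42886 to 116307 CPM in V2084D and 5727 to 63182 CPM in WT libraries labelled 293T, against 211 to 270 CPM in V2084D and 329 to 390 CPM in WT libraries labelled Huh7. The part of these levels in the interaction was not tested.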

How the results depend on the processing

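Over the alternatives, 211 counts of called subunits stayed within 1.5 times of the reported count and 21 did not, over 14 comparisons. A count of 0 that stayed 0 is among the 211, and 8 of the 14 comparisons had no called subunit. In the 6 comparisons with a called subunit, 676 of 768 log2 differences kept direction and side of the threshold, 25 passed it, 48 lost it and 19 reversed. In the 8 with none, 54 of 1088 changed sign, 18 of them in K2025E minus WT, 13 in G2087R minus KO and 10 in G2087R minus WT, where TCP1, CCT2, CCT4, CCT6A and CCT8 turned positive without G2087R replicates 1 and 2. In K2025E minus KO the 3 calls became 5 with GC and length offsets, 6 with offsets and block, 1 with only the compared groups, 0 without K2025E replicates 2 and 3, and 0 to 3 with 1 library left out. In V2084D shSTUB1 minus V2084D the 4 calls became 2 without filter, 2 with only the compared groups and 1 to 4 with 1 library left out. The 3 interaction calls became 6 with offsets and 6 with offsets and block. The 2 calls in WT, Huh7 minus 293T, became 1 with upper quartile scaling, 4 with offsets, 4 with offsets and block and 1 to 2 with 1 library left out, and K2025E minus WT gave 0 to 1. With a replicate block (same-numbered replicates paired), V2084D shSTUB1 minus V2084D had 2 calls, also 2 with offsets, and WT, Huh7 minus 293T, had 1. The causes were not tested.

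The reversals in the comparisons with calls were these. CCT6A in K2025E minus KO was at -0.059 without KO replicate 3 (up to 0.22 with another library left out). TCP1 in V2084D shSTUB1 minus V2084D reversed without V2084D replicate 3 or V2084D shSTUB1 replicate 3, with -0.088 to 0.021 over all libraries left out in turn, and CCT4 in V2084D shSTUB1 minus WT was at -0.21 with offsets, with or without block, and ran from -0.037 without V2084D shSTUB1 replicate 2 to 0.078. In the interaction CCT4 was at 0.021 with upper quartile scaling and ran from -0.13 to 0.11 with 1 library left out, and TCP1 from -0.23 to 0.11. In WT, Huh7 minus 293T, CCT5 was at -0.0090 with upper quartile scaling, CCT3 at 0.10 with offsets, 0.11 with offsets and block and -0.11 to 0.090 with 1 library left out, and CCT4 at 0.000457 with offsets and block and -0.17 to 0.085 with 1 library left out. Upper quartile scaling moved the median of all genes there to -0.18, against -0.07, and the calls to 1928 higher and 3806 lower, against 2572 and 3066.

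Over all genes, K2025E minus KO called 2989, between 1 without K2025E replicate 2 and 5270 without replicate 1. V2084D shSTUB1 minus V2084D ran from 2887 to 5845 and the interaction from 1673 to 5509 calls.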
